A study of Mus musculus with 4 samples.

Results

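CGE-type inhibitory neurons of the mouse ventromedial prefrontal cortex (vmPFC) were taken as cells that carry the GABA-synthesis genes Gad1 and Gad2 together with Adarb2, an RNA-binding protein gene that marks interneurons born in the caudal ganglionic eminence (CGE). The rule was applied to raw unique molecular identifier (UMI) counts of unsorted cells that are absent from the authors' list of excitatory neurons and passed the study's limits (between 500 and 8000 genes, between 1000 and 60000 UMIs, and a mitochondrial share below 20%). It asked for at least 4 UMIs of Gad1 and Gad2 together, at most 3 UMIs of Slc17a7 (the vesicular glutamate transporter of cortical excitatory neurons), at least 1 UMI of Adarb2, and more Adarb2 than Lhx6 (a factor of interneurons born in the medial ganglionic eminence, MGE). In all, 799 cells met it, 272, 290 and 237 in unsorted replicates 1, 2 and 3, of 19472 filtered unsorted cells and of 24801 cell barcodes in the series.

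The cells came from male C57BL/6 mice that were 8 weeks old when 5 retrograde viruses (rAAV2-retro, EGFP with a barcode) were injected into agranular insula, dorsomedial striatum, mediodorsal thalamus, basolateral amygdala and lateral hypothalamus. The prelimbic and infralimbic areas were dissected 6 weeks later and dissociated with enzymes, and each unsorted library holds 1 of 3 mice by its title. A further library, of EGFP-sorted cells from 3 pooled mice, was not used in the comparisons. Every mouse carried the virus and there was no untreated group, so all comparisons are between cell groups within the same mice, and mouse and library cannot be told apart.

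CGE interneurons are born late, settle mostly in upper cortical layers and express the serotonin-gated channel Htr3a. They include Vip cells, many of which inhibit other interneurons and so release excitatory cells from inhibition. They also include Lamp5 neurogliaform cells, which release GABA diffusely, Reln cells of the outermost layer, and Cck basket cells, whose terminals carry the cannabinoid receptor Cnr1. The transcription factors Prox1, Nr2f2 and Sp8 mark the lineage.

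The promoters of 3 neuropeptide genes are shown because these genes mark the groups compared below: Vip and Cck the CGE type and Sst the MGE type. Each run is the 250 bases upstream of the gene's start by RefSeq, from RefSeq on build GRCm38.p6, written along the gene's strand. Capitals mark the letters TGACG or their reverse complement CGTCA, the core of the cAMP response element, a site that cAMP- and calcium-activated factors can bind. Vip lies at chr10:5638968-5639217 on the plus strand, Cck at chr9:121495695-121495944 on the minus strand and Sst at chr16:23890845-23891094 on the minus strand.
Vip: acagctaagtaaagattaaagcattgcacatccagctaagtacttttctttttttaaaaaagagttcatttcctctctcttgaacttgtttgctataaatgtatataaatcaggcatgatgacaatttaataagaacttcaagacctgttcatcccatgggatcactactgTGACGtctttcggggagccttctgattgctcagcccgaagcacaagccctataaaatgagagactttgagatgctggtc
Cck: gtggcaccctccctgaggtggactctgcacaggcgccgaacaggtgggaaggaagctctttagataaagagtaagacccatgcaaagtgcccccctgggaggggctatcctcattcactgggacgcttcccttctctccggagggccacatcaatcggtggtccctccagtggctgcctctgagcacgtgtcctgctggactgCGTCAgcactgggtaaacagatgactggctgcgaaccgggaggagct
Sst: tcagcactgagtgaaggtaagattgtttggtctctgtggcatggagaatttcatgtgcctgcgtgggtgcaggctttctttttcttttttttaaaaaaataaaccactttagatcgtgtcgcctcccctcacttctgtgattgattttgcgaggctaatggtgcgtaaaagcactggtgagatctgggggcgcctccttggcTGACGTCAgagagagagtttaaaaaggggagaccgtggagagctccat
The match in Vip starts at position -79, counted from the base before the gene's start, and that in Cck at position -47. The Sst window holds 2 overlapping matches, at -48 and -45, that form a palindrome. These letters, searched on both strands, occur in 5836 of 32851 windows of the same length over 27025 genes (17.8%), so a match is common. The windows of Reln, Npy and Lamp5 held no match, and Crh had no window in the table. The whole genes lie, on the mm10 build, at chromosome 13, 8202866 to 8768747 (Adarb2), 10, 5639218 to 5647617 (Vip), 9, 121489824 to 121495694 (Cck), 5, 21884454 to 22344702 (Reln) and 2, 136052239 to 136069917 (Lamp5), all protein-coding.

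CGE-type cells made up 3.88%, 4.58% and 3.87% of the filtered cells of the 3 libraries (4.11% ± 0.409, SD, n = 3), a share that the rule itself sets. MGE-type cells, taken by the same rule with Lhx6 ahead of Adarb2, numbered 428 and made up 2.20% ± 0.0931. CGE-type cells were thus 65.1% ± 1.25 of both types together, and the range over libraries was narrow, from 64.3% to 66.5%. The gate left 51 further inhibitory cells in neither type, 49 of them with no UMI of Adarb2 or Lhx6 and 2 with equal counts. The depth was lower in CGE-type cells, at a median of 11162 UMIs a cell, than in MGE-type cells (17853) and in the authors' excitatory neurons (22262), and higher than in non-neuronal cells (4075). Fewer cells of a type and fewer cells of it surviving dissociation cannot be told apart.

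Few cells lay at the edge of the rule. Of the 799, 14 held exactly 4 Gad UMIs, 43 held exactly 1 Adarb2 UMI, 695 held no Slc17a7 and 795 no Lhx6, and the median cell held 22 Gad and 8 Adarb2 UMIs. Just outside, 12 cells failed only by holding 3 Gad UMIs and 24 only by holding more than 3 Slc17a7 UMIs, and none of the authors' excitatory neurons met the rest of the gate.

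The levels of Gad1, Gad2, Adarb2 and Slc17a7 were fixed by the rule and describe it, while Vip, a marker of the label, lay outside the rule. In CGE-type cells Gad1 reached 1336, 1326 and 1272 unscaled CPM (UMIs as a share of the group's total, in the usual CPM unit) and Gad2 1130, 1176 and 1142, against means of 2.0 and 1.8 in excitatory neurons. Adarb2 reached 868, 951 and 847 unscaled CPM against 1.0 in MGE-type cells, and Vip reached 5065, 6083 and 6067 against 3.8. Slc17a7 stood at 10.8 in CGE-type cells, against 1033 in excitatory neurons and 16.2 in non-neuronal cells. Transcripts of other cell types were present at a low level: the summed markers of microglia (8 genes) ranged from 79.2 to 176 unscaled CPM over the libraries, against 9559 to 9885 in non-neuronal cells, and those of oligodendrocytes (6 genes) from 157 to 289 against 11450 to 12610. No marker of either list was at 0 in the CGE type, and the part of such RNA in the results below was not tested beyond the values given beside them.

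The CGE and MGE types pass the same GABA gate, so the genes that separate them describe what is particular to the CGE type among inhibitory neurons. Vip, Cck, Htr3a, Prox1, Sp8 and the chemokine gene Cxcl14 were higher in the CGE type, and Sst, Crhbp, Pdyn and Tac1 were lower. Counts were summed per library and type and tested with edgeR's quasi-likelihood test with library as a block. Calls required a log2 fold change of 0.5 or more in size and, after Benjamini-Hochberg adjustment, a p below 0.05. Of 11521 genes tested 2408 were called (20.9%), 1253 higher in the CGE type (10.9%) and 1155 lower (10.0%). The 5 genes of the gate were not tested, and since the gate splits the cells by 2 lineage markers, genes that accompany those markers had to differ. Levels in this comparison are in CPM scaled by TMM, edgeR's correction for differences in RNA makeup.

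The lineage factors showed the split without exception in the CGE list. All 9 tested CGE-lineage transcription factors were higher (Sp8, Prox1, Nfix, Nfib, Nr2f1, Nr2f2, Npas3, Zeb2 and Npas1), with a median log2 fold change of 1.503 against 0.0068 over all genes. Prox1, a homeobox factor needed for CGE interneurons to mature, stood at 256, 279 and 286 CPM against 1.45, 1.12 and 0 (log2 fold change 8.197 ± 0.168, SE, adjusted p = 2.09e-30). Its antisense transcript Prox1os was higher too, at a mean of 94.2 against 0.245 CPM. The 2 genes overlap only at their starts, from 190170296 to 190170714 on chromosome 1. If counting ignored strand, reads could be confused in that stretch alone. Nfix and Nfib, nuclear factor I genes, were at 381 and 455 CPM against 6.69 and 17.2. Npas1 differed least, at 194 ± 11.7 against 127 ± 9.96 CPM (SD, n = 3). Of 8 MGE-lineage genes 7 were lower, among them Sst, Tac1, Sox6, Pvalb, Satb1 and Nxph1, and 1, Maf, was higher, at 362 ± 32.6 against 199 ± 23.3 CPM. Satb1, a chromatin organiser, was at 25.7, 26.8 and 30.6 CPM in the CGE type and at 819, 738 and 774 in the MGE type, groups that lie far apart.

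Neuropeptide genes parted in both directions. Of 14 tested precursors and related genes 7 were higher in the CGE type (Vip, Cck, Tac2, Pnoc, Penk, Crh and Nmb), 6 were lower (Crhbp, Sst, Pdyn, Tac1, Cort and Npy) and 1 was not called. Cck reached 4562, 4988 and 5233 CPM against 152, 143 and 110 (log2 fold change 5.18 ± 0.157, adjusted p = 1.40e-03). Tac2, which encodes neurokinin B, reached 939, 977 and 1069 CPM against 24.0, 42.2 and 39.4, and Pnoc, the nociceptin precursor, 241 ± 6.21 against 27.9 ± 10.3. Sst was at 5.90, 3.01 and 33.8 CPM in the CGE type against 8294, 8384 and 10590 in the MGE type (log2 fold change -9.39 ± 0.437, adjusted p = 4.85e-03). The third CGE value rests on 1 cell with 93 of that library's 107 Sst UMIs, while no CGE-type cell of replicates 1 and 2 held more than 2. Cartpt, a further peptide gene, had 0.590, 0.820 and 16.7 CPM against 113, 142 and 119 and did not pass (edgeR adjusted p = 0.0708). Npy was shared, at 1165, 1165 and 1359 CPM against 1705, 2097 and 2487, and so was Reln, at 218 ± 7.75 against 328 ± 20.3, both lower in the CGE type.

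Receptors that let the cells sense modulators differed as well. Htr3a was at 183, 221 and 229 CPM in the CGE type and had no UMI in the 7906254 UMIs of the MGE type, which puts it at least 553-fold higher against a floor of 3 counts over the group. Of 4 tested serotonin- and acetylcholine-gated channel genes 3 were higher: Htr3a, Chrna4 and Chrna5. Of 21 tested G protein-coupled modulator receptors 8 were higher and 8 lower. The higher ones included Cnr1 (3585 ± 500.1 against 339 ± 30.9 CPM), the neuropeptide Y receptors Npy1r (139 against 4.49) and Npy2r (148 against 1.78), the alpha-1B adrenoceptor gene Adra1b (154 against 10.3) and the serotonin receptor gene Htr2c (171 against 15.5). The lower ones included the oxytocin receptor gene Oxtr (1.93 ± 1.06 against 31.2 ± 2.58), the muscarinic receptor gene Chrm2 (0.287 against 22.7) and Tacr1, the substance P receptor gene (0.287 against 12.8).

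Fast-transmission and firing genes were mostly lower in the CGE type where they were called. Of 20 glutamate receptor genes 4 were higher and 9 lower, the lower ones including the AMPA receptor subunits Gria1 (226 ± 5.72 against 565 ± 31.2 CPM) and Gria3 (54.6 against 258). Of 18 potassium and sodium channel genes 3 were higher and 8 lower. Kcnc2, a Kv3 channel gene of fast-spiking cells, was at 119, 123 and 117 CPM against 525, 435 and 420. Kcnq5, a gene for M-type potassium current, went the other way at 102 ± 8.24 against 13.1 ± 2.54. Of 12 GABA-A receptor subunits 3 were higher (Gabrb2, Gabra2 and Gabra5) and 3 lower (Gabrg1, Gabra3 and Gabrd).

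Growth factor and chemokine genes were called higher more often than lower, 9 against 2 of 18 tested. Cxcl14 stood at 1491, 1245 and 1308 CPM against 1.09, 0.373 and 2.46 (log2 fold change 10.0 ± 0.107, adjusted p = 8.15e-40). The receptor tyrosine kinase gene Egfr was at 68.4 ± 10.4 against 0.608 ± 0.754 CPM, Kit at 249 ± 30.4 against 22.1 ± 4.15, Erbb4, the neuregulin receptor of interneurons, at 414 ± 8.26 against 200 ± 33.5, and Igf1 at 412 ± 22.0 against 73.8 ± 11.3. Other genes furthest apart were Frem1, Sln, Tnfaip8l3, Sncg and Cplx3 on the higher side and Moxd1, Tmem132c, Lgals1, Unc13c, Lypd6, Spon1 and Slit2 on the lower side. Lypd6, a modulator of nicotinic receptors, was at 5.31, 6.29 and 5.36 CPM against 448, 441 and 440.

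**Figure D1:**
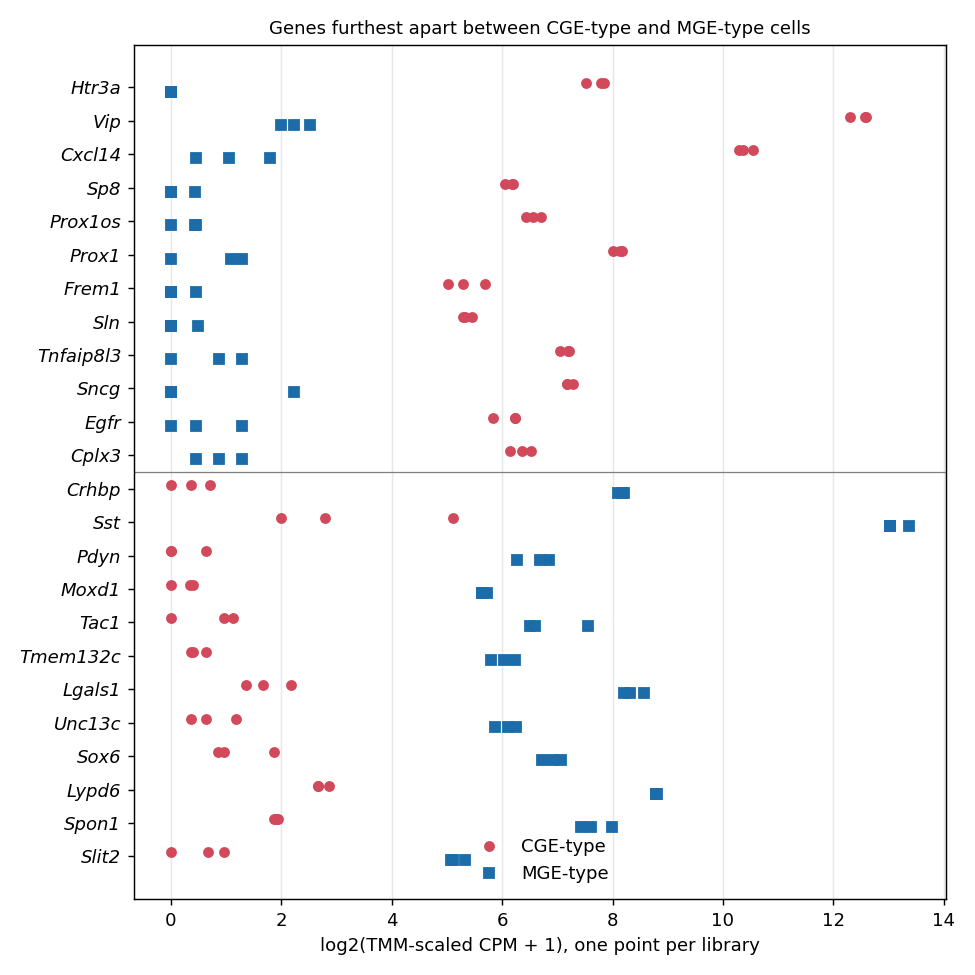
Levels of the 12 genes furthest above and the 12 furthest below in CGE-type (red circles) against MGE-type cells (blue squares), as log2 of TMM-scaled CPM plus 1 on the x axis, with 1 point per library (n = 3 each). No gene shown overlaps between the types, and Sst in replicate 3 (33.8 CPM) lies apart from the other CGE-type points.

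Against the authors' excitatory neurons (7765 cells of the same libraries) the difference is a description with no test, since both groups were chosen by their expression. A gene was counted when its log2(CPM + 1) differed by at least 1 in the same direction in 3 of 3 libraries, which held for 2124 of 15005 genes (14.2%), 1028 higher (6.85%) and 1096 lower (7.3%) in the CGE type. All 5 genes of GABA synthesis and transport, all 6 GABAergic transcription factors and all 10 Vip-type genes were higher, and all 13 excitatory genes were lower, which the gates of both groups in part fix. Among genes outside the gate, Slc32a1, the vesicular GABA transporter gene, was at 364, 339 and 341 CPM against 0.270, 0.532 and 0.412. Erbb4 was at 398 ± 7.54 against 0.790 ± 0.0484. On the other side, Crym, a thyroid hormone binding protein gene, was at 2.36 ± 0.226 against 345 ± 6.02 CPM, and the neuronal factors Neurod6 and Tbr1 at 2.49 and 3.84 against 262 and 267. Nrgn, a calmodulin-binding postsynaptic protein gene, was at 33.4, 35.3 and 53.0 CPM against 2990, 2830 and 3018.

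Of 16 peptide genes 8 were higher in the CGE type, 3 were lower (Grp, Adcyap1 and Pdyn) and 5 were not counted. Cck was not confined to inhibitory neurons: excitatory neurons held 1236, 1176 and 1304 CPM against 4368, 4810 and 5052 in the CGE type. Activity-regulated genes, which neurons induce within minutes to hours of firing, were lower: 14 of 18 lay below and none above. Arc was at 6.22, 8.44 and 9.14 CPM against 249, 255 and 271, and Bdnf, a neurotrophin gene that inhibitory neurons hardly transcribe, at 0.378 ± 0.164 against 73.9 ± 6.90. The other 4 were not counted. The tissue was dissociated with enzymes before counting, and the part of that step in activity gene levels, here and below, was not tested. Markers of microglia were higher for 6 of 8 genes in this comparison and those of oligodendrocytes for 4 of 6, with sums of 132 against 27.9 and 206 against 72.0 unscaled CPM.

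Inside the CGE type, the 4 markers Vip, Cck, Reln and Lamp5 were read per cell, positive at 3 or more UMIs. Vip marked 482 cells (60.4% ± 3.61 per library), Cck 486 (60.9% ± 2.72), Reln 197 (24.6% ± 1.15) and Lamp5 84 (10.4% ± 1.07), and 24 cells (3.03% ± 0.537) held none. Most cells held 1 marker (349) or 2 (378), 48 held 3, and the commonest combinations were Vip alone (233), Vip with Cck (212), Reln with Cck (99) and Cck alone (94). Cck cut across the others: it was positive in 241 of 482 Vip cells (50.0%), in 146 of 197 Reln cells (74.1%) and in 53 of 84 Lamp5 cells (63.1%). Vip and Lamp5 kept apart, with 1 cell positive for both. Of the Lamp5 cells 45 (53.6%) were Reln-positive, which is 22.8% of the Reln cells.

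For exclusive groups each cell was assigned to the first marker it held in the order Vip, Lamp5, Reln, Cck. This gave 482 Vip cells, 83 Lamp5 cells (10.3% ± 0.923), 116 Reln cells (14.5% ± 0.612) and 94 Cck cells (11.7% ± 3.58). The Cck group had 43, 29 and 22 cells in replicates 1, 2 and 3 (15.8%, 10.0% and 9.28%), and replicate 1 stood above the others. Vip cells held a median of 9510 UMIs and cells with no marker 9452, while Lamp5, Reln and Cck cells held 14670, 16127.5 and 19004.

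**Figure D2:**
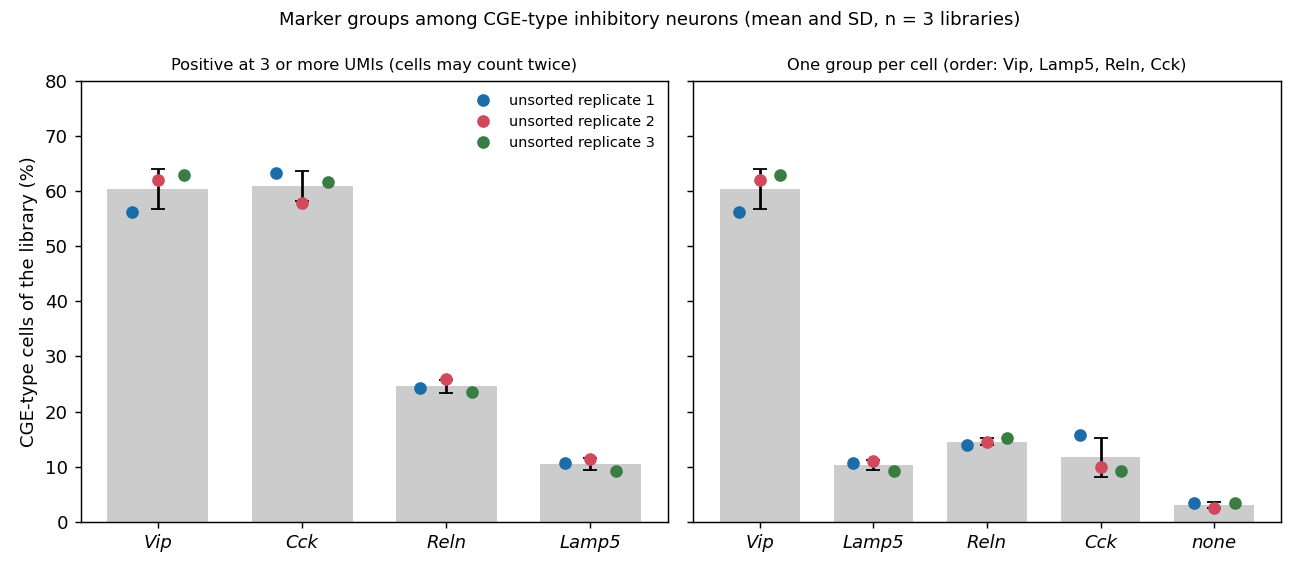
Share of CGE-type cells of each library (y axis, %) that were positive for each marker (left) and that fell in each exclusive group (right). Bars give the mean, error bars the SD and points the 3 libraries. Vip and Cck each mark about 60% of the cells (60.4% and 60.9%), Reln 24.6% and Lamp5 10.4%.

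Since depth sets how often a transcript is caught, shares were repeated with each cell thinned to 2000 UMIs, which left out 5 CGE-type and 869 non-neuronal cells. A Vip UMI was then found in 60.5% ± 4.09 of CGE-type cells (63.9% unthinned) against 1.15% of MGE-type, 0.538% of excitatory and 0.955% of non-neuronal cells. For Cck the shares were 61.6%, 14.7%, 44.6% and 3.81% in the same order (68.2% of CGE-type cells unthinned), and for Lamp5 7.58%, 0.221%, 3.59% and 0.138% (14.9% unthinned). Reln was the exception, found in 18.7% of CGE-type cells (38.7% unthinned) but in 43.0% of MGE-type cells. Htr3a was found in 25.7% ± 5.57 of thinned CGE-type cells (52.8% unthinned) and in 0 of 428 MGE-type cells.

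**Figure D3:**
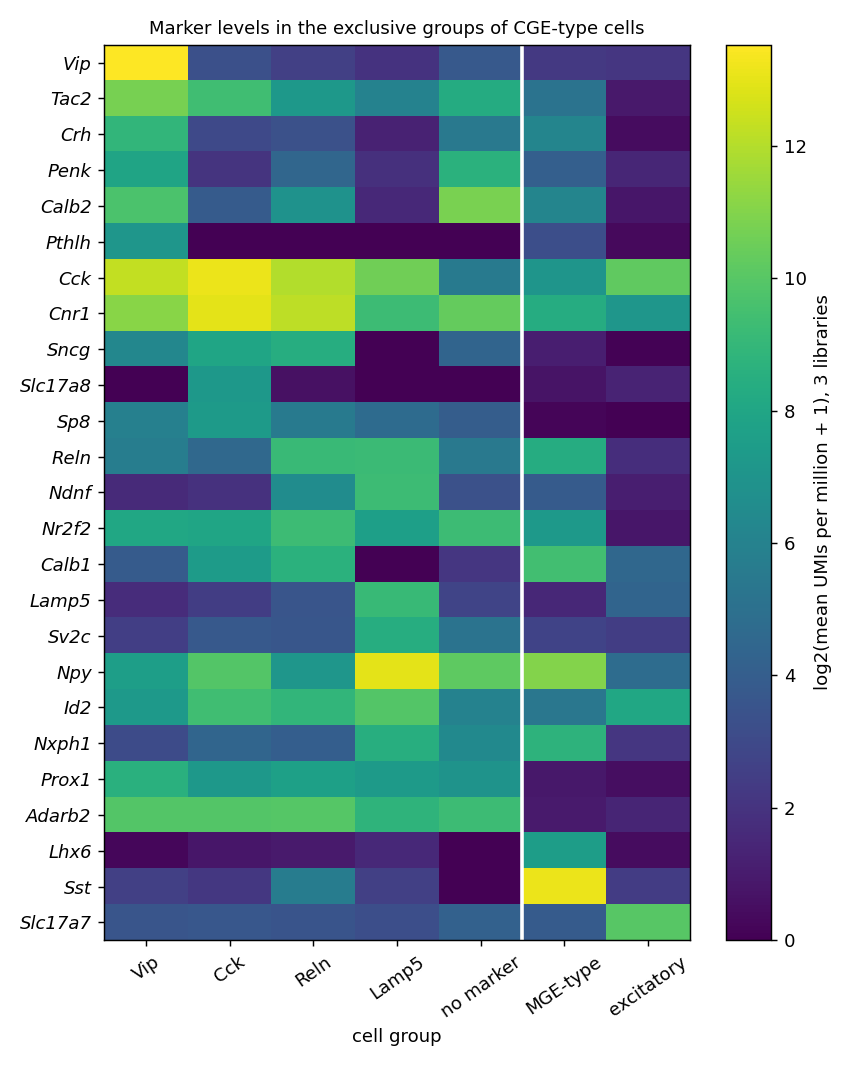
Mean level over 3 libraries of 25 genes (rows) in the exclusive CGE-type groups, with MGE-type and excitatory neurons to the right of the white line, coloured by log2 of unscaled CPM plus 1. Vip cells carry Tac2, Crh, Penk and Calb2, Lamp5 cells Npy and Ndnf, Reln cells Ndnf and Nr2f2, and Cck cells Cnr1.

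Vip-positive cells carried Crh, Tac2 and Penk, the 3 of 7 tested neuropeptide genes that were called higher, while Npy was lower and 3 were not called. In the exclusive groups Crh, the corticotropin-releasing hormone gene, reached 543, 432 and 469 unscaled CPM in Vip cells and at most 17.2 in any library of the Lamp5, Reln and Cck groups. Tac2 reached 1715 ± 75.6 against 667 ± 68.7 in Cck cells and 145 ± 56.3 in Reln cells, and Calb2, which encodes calretinin, 840 ± 50.6 against 117 ± 51.9 in Reln and 13.9 ± 18.6 in Cck cells. With edgeR, Vip-positive against Vip-negative CGE-type cells gave 1708 called genes of 10499 (16.3%), 859 higher (8.18%) and 849 lower (8.09%), with Vip itself not tested. Of 9 tested Vip-type genes 6 were higher (Crh, Chat, Crispld2, Penk, Calb2 and Tac2) and none was lower, and of 10 Lamp5-type genes 9 were lower. Crh was at 546, 437 and 480 CPM against 8.24, 12.2 and 2.65 (log2 fold change 5.93 ± 0.170, adjusted p = 2.86e-12). Pthlh, the gene of parathyroid hormone-like hormone, reached 139, 161 and 119 CPM and had no UMI among Vip-negative cells, at least 244-fold higher against a floor of 3 counts. Aebp1 was likewise at 26.2 ± 2.58 CPM against no UMI, at least 45.9-fold higher. Sema5b, a guidance cue gene, Rspo1, a Wnt signalling enhancer gene, and Tpbg were at 74.3, 24.6 and 54.4 CPM against 1.23, 0.393 and 0.957. Ndnf, Krt73, Bmp3, Mpped1 and Sv2c, with Lamp5, were the lowest.

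The machinery of GABA itself was lower in Vip-positive cells. Of 5 genes 4 were called lower and none higher: Gad1 was at 1055, 1010 and 1055 CPM against 1557, 1669 and 1548, and Gad2 at 756, 830 and 803 against 1416, 1547 and 1547. Abat, which breaks GABA down, was at 159 ± 9.34 against 320 ± 62.7. Gad1 and Gad2 were part of the gate for both groups at the same limit, and their groups did not overlap in any library. Among lineage factors Prox1 was higher, at 383 ± 8.52 against 173 ± 2.84 CPM, while Nr2f2, Npas3 and Nfib were lower.

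Activity-regulated genes set the Vip group apart from the others. Of 15 tested, 12 were higher in Vip-positive cells and none lower (median log2 fold change 1.36 against 0.0029 over all genes), and DESeq2 called 11 higher. Fos, an AP-1 factor gene and the classical early-response gene, was at 497, 474 and 639 CPM against 188, 157 and 232 (log2 fold change 1.49 ± 0.0653, adjusted p = 3.58e-16). Nr4a1, a nuclear receptor gene, was at 175, 182 and 218 CPM against 54.6, 34.9 and 61.0, and Ier2 at 153, 155 and 158 against 44.3, 47.0 and 40.4. Npas4, a factor induced by calcium entry, was at 83.8 ± 25.0 against 30.2 ± 7.86. Of the 3 not called, Arc was at 8.56 against 8.13 CPM and Jun at 329 against 287, and Dusp1 missed on size alone (log2 fold change 0.49, adjusted p = 2.61e-03).

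The sum of the 18 activity genes was 2709 ± 197 unscaled CPM in Vip cells (2502 to 2895), 1468 ± 128 in Lamp5 cells, 1214 ± 255 in Reln cells and 975 ± 214 in Cck cells, against 2020 ± 121 in MGE-type cells and 4997 ± 85.5 in excitatory neurons. No library of the Lamp5, Reln or Cck groups reached the lowest Vip value. Non-neuronal cells held more than any neuron group, at 11280 to 11920. The other splits showed the reverse: 10 of 15 genes were lower in Lamp5-positive, 11 in Reln-positive and 10 in Cck-positive cells, and none was higher (DESeq2 called 7 lower in each). Glial markers were lower there too: 3 of 4 microglia and 1 of 2 astrocyte markers in the Lamp5 split, 2 of 2 astrocyte markers in the Reln split, and 3 of 7 microglia and 2 of 2 astrocyte markers in the Cck split. Without Scrublet's doublets 0 microglia and 1 astrocyte marker were called lower in each of these splits, beside 10, 11 and 10 activity genes, and 1 astrocyte marker was called higher in the Lamp5 split. These splits reuse the same cells, and 482 of the 799 are Vip-positive, so they are not independent of the first. Against the MGE type, the CGE type as a whole had 5 of 15 higher (Nr4a3, Ier2, Npas4, Fosl2 and Nr4a1) and 1 lower (Arc). In that comparison 1 of 2 astrocyte, 1 of 6 oligodendrocyte and 2 of 3 oligodendrocyte precursor markers were higher, and 1 of 8 microglia markers was lower. Without Scrublet's doublets 1 astrocyte marker was higher and 0 of the other 3 lists were called, beside 5 activity genes higher and 2 lower.

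**Figure D4:**
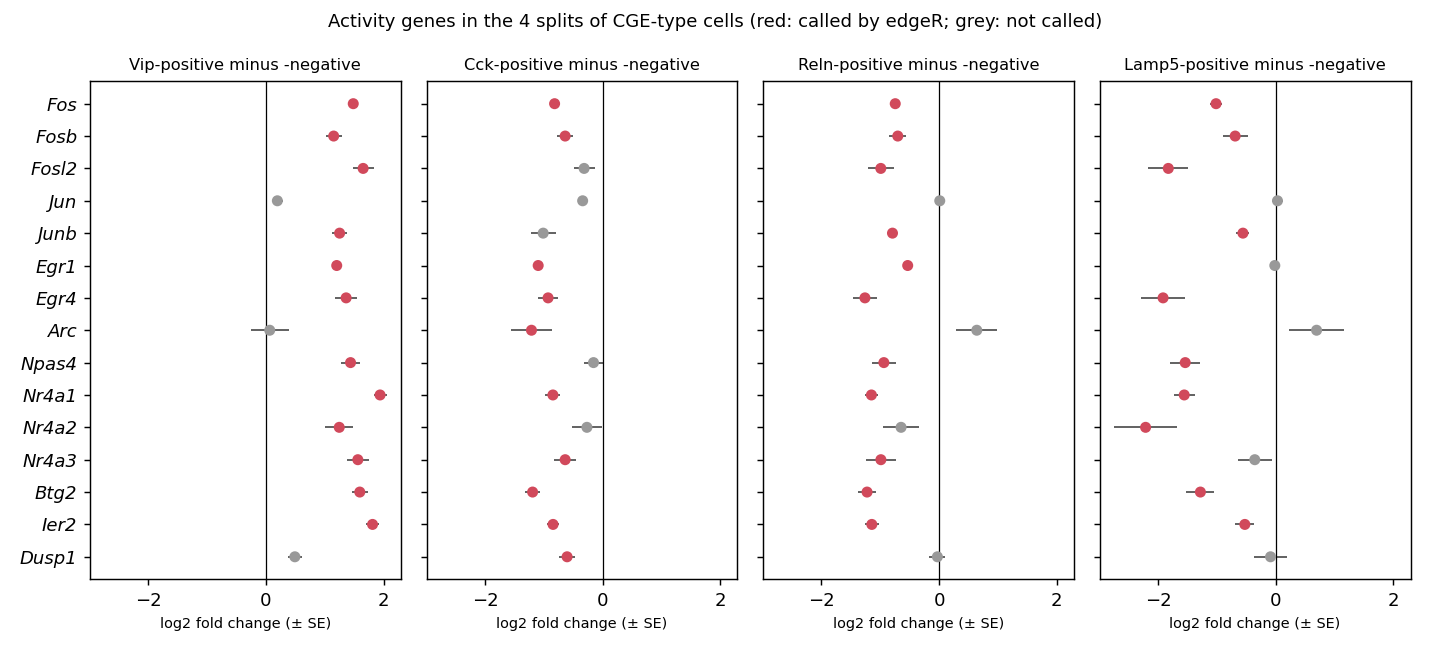
Log2 fold change (x axis, points, with SE as bars) of 15 activity genes between marker-positive and marker-negative CGE-type cells, in red where called by edgeR and in grey where not. Called points lie right of 0 for Vip (12 of 15) and left of 0 for Cck (10), Reln (11) and Lamp5 (10).

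Markers of other cells moved with the Vip split. Astrocyte markers (6 genes) summed to 118 ± 13.8 unscaled CPM in Vip cells (106 to 133), against 25.4 to 47.2 as means of the Lamp5, Reln and Cck groups, and Aldoc alone was at 100 ± 5.16 CPM against 27.6 ± 7.65. Oligodendrocyte markers (6 genes) ranged from 167 to 522 in Vip cells, 22.4 to 55.3 in Lamp5, 35.1 to 47.4 in Reln and 9.39 to 365 in Cck cells. Microglia markers (8 genes) ranged from 132 to 247 in Vip, 21.7 to 62.3 in Lamp5, 16.8 to 250 in Reln and 7.05 to 245 in Cck cells. In Vip cells no gene of these 3 lists was at 0. The Vip group holds 482 cells, against 83 Lamp5, 116 Reln and 94 Cck cells. A rare transcript is missed more easily in a smaller group, so zeros do not compare directly. In Reln cells the defining astrocyte genes Aldh1l1, Gja1, Gfap and Aqp4 were at 0, as were Gfap and Aqp4 in Cck cells, Mog in Reln cells and Cx3cr1 in Lamp5 cells. Of the genes tested, 2 of 7 microglia, 2 of 2 astrocyte and 2 of 5 oligodendrocyte markers were called higher in Vip-positive cells. Without the cells that Scrublet marked as doublets, 12 of 15 activity genes were called higher, and so were 2 microglia, 1 astrocyte and 1 oligodendrocyte marker. As non-neuronal cells are rich in activity transcripts, the part of such RNA in the Vip difference was not tested. Nor was the part of the enzyme dissociation in that difference tested.

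Lamp5-positive cells, 84 in number, carried the neurogliaform signature. Npy, neuropeptide Y, was at 8190, 6310 and 9609 unscaled CPM in Lamp5 cells and between 71.7 and 1700 in every library of the Vip, Reln and Cck groups, although not in each cell: 24 of 29, 30 of 32 and 21 of 22 Lamp5 cells held a Npy UMI. With edgeR 1728 of 10457 genes were called (16.5%), 772 higher (7.38%) and 956 lower (9.14%). Of 9 tested Lamp5-type genes 8 were higher (Sv2c, Npy, Ndnf, Cplx3, Kit, Reln, Id2 and Nos1) and Egln3 was lower, while 6 of 9 Vip-type and 6 of 7 Cck-type genes were lower. Sv2c, a synaptic vesicle protein gene, was at 359, 332 and 352 CPM against 2.72, 7.16 and 9.94 (log2 fold change 5.72 ± 0.170, adjusted p = 1.34e-36). Nxph1, a neurexin ligand gene that MGE-type cells also carry, was at 322, 379 and 362 CPM against 10.5, 12.4 and 15.97. Chst7, Lsp1, Crispld1 and Mpped1 completed the most raised. Calb1, Sncg, Pthlh, Slc5a7, Grpr and Tpbg had no UMI in Lamp5-positive cells, which sets them at least 12.8-fold (Tpbg) to 69.9-fold (Sncg) lower against a floor of 3 counts over the 1260580 UMIs of the group.

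GABA genes went the other way from the Vip split. Gad1 was at 2607, 2663 and 2701 CPM in Lamp5-positive cells against 1183, 1119 and 1139 and Gad2 at 2762 ± 102 against 945 ± 22.7, with no overlap in either, and Abat was lower. Of 11 tested GABA-A subunits 6 were higher and 1 lower. Gabrd, the delta subunit gene of receptors outside synapses, was at 44.6, 39.0 and 53.0 CPM against 2.04, 2.60 and 2.49 (log2 fold change 4.201 ± 0.377, adjusted p = 3.53e-16), and Gabra5 at 82.3 ± 19.1 against 17.9 ± 5.13. Lineage factors divided, with Nfib and Nfix higher and 6 of 9 lower, among them Npas1 at 12.8 ± 11.1 against 221 ± 9.86 CPM. Endothelial markers were called higher for 4 of 4 genes tested, and without Scrublet's doublets 0 were called higher and 1 lower. Their sum over 5 genes ranged from 21.7 to 182 unscaled CPM in Lamp5 cells and from 17.2 to 88.2 in Vip cells. Oligodendrocyte markers were called lower for 5 of 5, and for 0 without doublets.

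Reln-positive cells overlapped with the Lamp5 group and added cells of their own. Ndnf, a secreted neurite-promoting protein gene of the outermost layer, was at 116, 76.1 and 93.8 unscaled CPM in Reln cells that lack Lamp5, at 548, 640 and 633 in Lamp5 cells and at no more than 8.52 in the Vip and Cck groups. Nr2f2, an orphan nuclear receptor gene, was at a mean of 626 in Reln cells against 195 in Lamp5, 268 in Vip and 243 in Cck cells. With edgeR 964 of 10449 genes were called (9.23%), 440 higher (4.21%) and 524 lower (5.01%). Ndnf was at 293, 303 and 276 CPM against 8.85, 4.12 and 1.37 (log2 fold change 5.89 ± 0.197, adjusted p = 2.36e-12). Rxfp1, a relaxin receptor gene, was at 154, 119 and 129 CPM against 13.1, 6.18 and 6.38, and Atp2b4, Fam19a1, Rxrg and Gm49227 were the other most raised. Of 9 CGE-lineage factors Nr2f2 was higher and Sp8 and Prox1 were lower. Of 9 tested Lamp5-type genes 6 were higher and none lower. Vip was at 728, 938 and 474 CPM in Reln-positive cells against 6939, 8740 and 8647, and Pthlh, Cbln4, Sema5b, Igfbp4, Ano4 and Enpp2 were the most lowered. Oligodendrocyte markers were called lower for 6 of 6, and for 0 without Scrublet's doublets.

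Cck-positive cells stood out for the endocannabinoid receptor. Cnr1 was at 8874, 8694 and 6825 unscaled CPM in the exclusive Cck group, at 5019, 4986 and 3982 in Reln cells, 2236 ± 175 in Vip cells and 624 ± 70.9 in Lamp5 cells, an order in which no neighbouring groups overlapped. With edgeR 1453 of 10442 genes were called (13.9%), 768 higher (7.35%) and 685 lower (6.56%). Of 7 tested Cck basket-type genes 5 were higher (Krt73, Sncg, Cnr1, Cplx2 and Htr3a) and Trpc6 was lower. Sncg, the gamma-synuclein gene, was at 216, 215 and 210.0 CPM against 3.18, 4.11 and 4.07 (log2 fold change 5.78 ± 0.184, adjusted p = 3.02e-36). Sp8 was at 92.9 ± 5.17 CPM against 20.2 ± 9.01, and Sln, Frem1, Megf10, Col25a1 and Gm49227 were the other most raised. Gm49227 had no UMI among Cck-negative cells and was at least 34.5-fold higher against a floor of 3 counts.

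Glutamate receptor genes were lower in Cck-positive cells for 9 of 19 tested and higher for none. Grin3a, an NMDA receptor subunit gene, was at 24.1, 29.5 and 20.5 CPM against 135, 129 and 156, and Grm8 at 5.13 ± 0.847 against 34.1 ± 6.82. Rspo1, Cbln4, Gpc6, Nrp1, Nnat and Chd7 were the most lowered genes. Slc17a8, the vesicular glutamate transporter VGLUT3 of some Cck basket cells, was at 389, 34.3 and 21.1 unscaled CPM in the exclusive Cck group and at 0 in Vip and Lamp5 cells. It was held by 12 of 43, 2 of 29 and 1 of 22 Cck cells in replicates 1, 2 and 3, so 1 library carried most of it.

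Across the 799 single cells, the genes whose level ran most like a marker were Synpr, Gpd1 and C1qtnf4 for Vip, Sv2c, Mpped1 and Crispld1 for Lamp5, Ndnf, Spock1 and Rxfp1 for Reln, and Cnr1, Shisa9 and Plppr1 for Cck. The Pearson correlations of log counts were 0.69 for Synpr, 0.83 for Sv2c, 0.63 for Ndnf and 0.60 for Cnr1, over 9494 genes compared. Between the markers themselves they were -0.55 for Vip with Reln, -0.42 for Vip with Lamp5, -0.25 for Vip with Cck and 0.31 for Lamp5 with Reln. These are descriptions over cells that share library and depth, with no test.

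Viral barcode transcripts, which mark neurons with an axon at an injected target, were rare in CGE-type cells. The feature was taken as the sum of the 5 barcodes, which was not tested. At least 1 barcode UMI was found in 20 of 272, 7 of 290 and 12 of 237 cells (7.35%, 2.41% and 5.06%, 95% Wilson intervals 4.81% to 11.1%, 1.17% to 4.90% and 2.92% to 8.64%, for counting error only). The mean was 4.94% ± 2.47, against 6.89% ± 2.92 of MGE-type, 3.58% ± 0.517 of non-neuronal and 58.8% ± 2.03 of excitatory cells. Thinned to 2000 UMIs, the share was 3.72%, 1.04% and 0.848% in the CGE type (1.87% ± 1.61) against 2.04%, 1.72% and 1.86% in non-neuronal cells (1.87% ± 0.163), while excitatory neurons reached 32.9% ± 1.11. MGE-type cells, above the CGE type unthinned, were then at 0.662%, 0% and 1.53% (0.730% ± 0.766). In the CGE type, replicate 1 stood above non-neuronal cells and the other 2 below, and the mean without replicate 1 was 0.943%. With 3 libraries a group, an exact permutation test cannot go below p = 0.1.

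Exclusive groups held barcode UMIs in 24 of 482 Vip, 4 of 83 Lamp5, 5 of 116 Reln and 5 of 94 Cck cells, shares between 4.31% and 5.32%. At 5 or more UMIs there were 7 cells, 6 in replicate 1 and 1 in replicate 3. This was 0.876% on average, against 0.475% of MGE-type, 0.0737% of non-neuronal and 39.0% of excitatory cells. Of these 7, 6 were Vip cells and 1 a Cck cell, and the highest held 66 UMIs. The source of these UMIs was not tested.

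**Figure D5:**
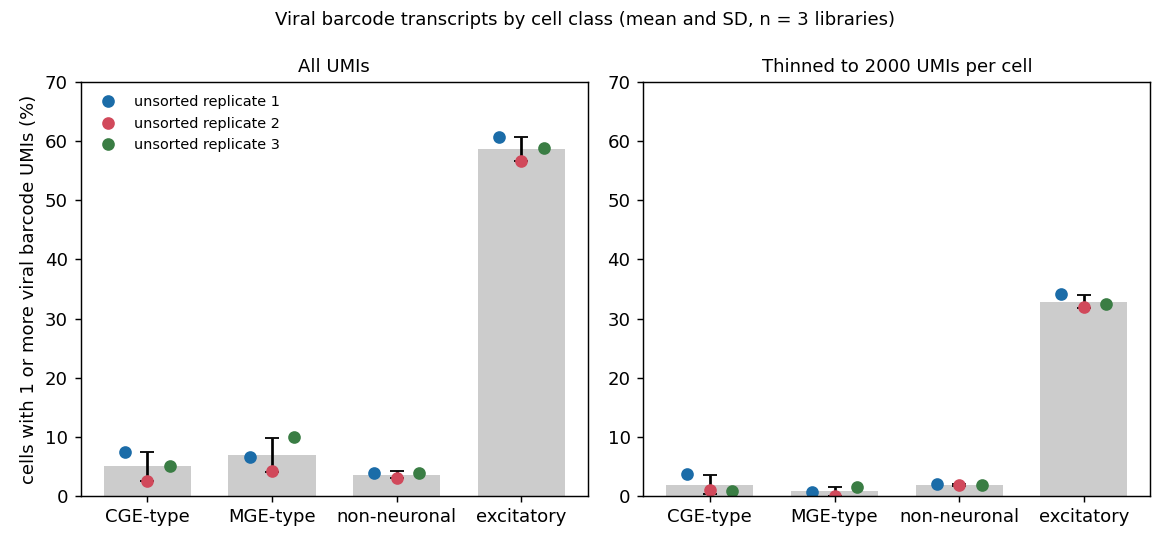
Share of cells with 1 or more viral barcode UMIs (y axis, %) by cell class, with all UMIs (left) and thinned to 2000 UMIs a cell (right). Bars give the mean, error bars the SD and points the 3 libraries. CGE-type cells (4.94%, thinned 1.87%) sit near non-neuronal cells (3.58%, thinned 1.87%) and far below excitatory neurons (58.8%, thinned 32.9%).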

How the data were processed

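Single-cell transcriptomes were measured by droplet sequencing (Chromium 3' v3) in 3 unsorted libraries and 1 EGFP-sorted library. The authors deposited raw UMI counts made with Cell Ranger 3.0.2 (mm10), and a list of excitatory neurons. That list followed processing in Seurat 3.1.4 and clustering in Scanpy. Counts are not normalized. As counts come from transcript ends, levels of different genes were not compared. Total UMIs ranged from 54749198 to 87841541 per library. The libraries shared 5 to 30 cell barcodes by pair.

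Members and gene lists were chosen with earlier results of these data known. UMI counts of each cell group were added up within a library. Genes passing filterByExpr were tested with edgeR 4.0.16 (TMM, quasi-likelihood, library as block, since both groups of a pair come from the same mouse) in R 4.3.3. DESeq2 1.42.0 was an alternative. The correlation of deviations between paired CGE and MGE sums was between -0.0148 and 0.0591. On simulated counts with known changes, CGE against MGE recovered 52.9% of genes changed by a log2 of 0.5, 87.9% at 1 and 100% at 2 (of 11526 genes). The same was 22.1%, 63.6% and 90.9% for the Lamp5 split (of 10458 genes). Recovery there asked for an adjusted p below 0.05 and the right direction, without the fold limit of the calls. Named genes were the gate and marker genes, list members, and the called genes with the largest folds at 20 CPM or more in every library of the higher group, 12 a direction for CGE against MGE and 6 for each split. For excitatory neurons these were 12 a direction at 50 CPM or more. The 3 genes most like each marker over cells were also named. "Unscaled CPM" are UMIs divided by the group's total UMIs, without TMM. Non-neuronal cells held at most 1 Gad and 1 Slc17a7 UMI and 5 or more non-neuronal marker UMIs. Scrublet in scanpy 1.11.5 marked 2.72% to 2.82% of cells per library as doublets, 20 of them CGE-type. They were kept, and leaving them out was an alternative. No per-sample column was left unused. P-values measure how the difference between 2 groups of the same mouse varies over 3 mice, 1 per library, as the block removes each mouse's own level.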

Additional observations from a re-analysis of the deposited data

How the results depend on the processing

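DESeq2 called fewer genes: 1484 for CGE against MGE and 840, 952, 398 and 633 for the Vip, Lamp5, Reln and Cck splits, of which 1463, 834, 948, 392 and 627 were called the same way by edgeR. Leaving out each replicate in turn gave 2262 to 2421, 1334 to 1803, 1278 to 1583, 648 to 944 and 1243 to 1543 calls, and 2312 to 2376 genes against excitatory neurons. Without the library block (pairing), calls were 2404, 1706, 1706, 909 and 1396. Scaling by library totals gave 1128 higher and 1002 lower genes against excitatory neurons, in place of 1028 and 1096. The CGE share was 3.57% with Slc17a7 at 0 and 6.40% among cells of 5000 or more UMIs.

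Marker shares moved with the limit. The Lamp5 share was 14.9% at 1 UMI, 8.11% at 5 and 8.23% at 3 per 10000 UMIs, and the Reln share 38.7%, 17.8% and 19.1%. The Reln share was 25.98% with 8 or more Gad UMIs. The Cck share was 68.2% at 1 UMI and 64.8% with 3 or more Adarb2 and no Lhx6 UMI. The viral barcode share was 0.876% at 5 UMIs and 1.87% after thinning.

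Of 797 gene results, 5 changed direction, all in the splits: Slc1a3 (Vip) ran from -0.074 without replicate 1 to 1.47 without replicate 3, Flt1 (Lamp5) went to -0.90 at 5 UMIs, Itm2a and Cldn5 (Lamp5) to -0.40 and -3.04 without doublets, and Col25a1 (Reln) to -0.22 at 3 per 10000 UMIs. The cause was not tested. Another 502 gene values under single alternatives missed the threshold in the same direction, and 8477 did not change. Depth limits genes of few UMIs, Lamp5-positive cells above all with 1260580 UMIs in all.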

Other observations

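The 24 CGE-type cells with none of the 4 markers (9, 7 and 8 per library) carried Calb2 in most cells: 8, 6 and 8 held a UMI, at 1975, 1595 and 1798 unscaled CPM, against 840 ± 50.6 in Vip cells. Penk, the enkephalin precursor gene, was held by 5, 5 and 7 of them (403 ± 145 against 236 ± 38.1 in Vip cells). Thsd7a and Grin3a were likewise each held by 5, 5 and 7 cells, at 632 ± 93.8 and 388 ± 48.7 against at most 144 and 63.7 as means of the marker groups. Grin3a was at 548 in MGE-type cells. Other genes rested on few cells: Meis2, a homeobox factor gene, was held by 2, 1 and 3 cells (121 ± 63.7, and 216 in excitatory neurons), and Zic1, a zinc-finger factor gene, by 2, 1 and 2 (117 ± 37.2, and 65.9 in non-neuronal cells). Plxdc2 and Plcl1 were lower in these cells (104 and 58.8) than in non-neuronal cells (193 and 74.0). Summed markers of oligodendrocyte precursors ranged from 0 to 723 over the libraries (mean 244.5, against 32.8 in all CGE-type cells) and those of mural cells from 20.6 to 681 (mean 245.6, against 54.9), and their part in these levels was not tested. All genes named here except Calb2 and Penk were chosen after their values were seen, from the 10 largest ratios among genes at 50 or more unscaled CPM in each library. The values are a description with no test. The mean Npy level of these cells rests on 1 cell with 197 UMIs.

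In the EGFP-sorted library 1 of 1791 filtered cells met the rule for the CGE type.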
